A study of Mus musculus with 18 samples.

Results

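The genes described are 9 that encode peptides and receptors known for the control of feeding, measured in the lateral septum (LS) of female mice. They are the neuropeptide genes Npy and Cartpt, the neuropeptide Y receptors Npy1r, Npy2r and Npy5r, the melanocortin receptors Mc3r and Mc4r, the glucagon-like peptide 1 receptor Glp1r and the leptin receptor Lepr. They were chosen by symbol, and a gene was represented by the brightest target (probeset) that the platform annotation pairs with it alone. Each of the 9 genes has exactly 1 such target, among 19938 genes with a target of their own and 35557 targets in all.

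RNA was taken from the LS of outbred hsd:ICR females about 70 days old, with 6 mice per group and 1 Affymetrix Mouse Gene 1.0 ST array per mouse. Lactating maternal mice nursed their litters until dissection on postpartum Day 7. Pups removed mice gave birth as well, lost their pups on postpartum Day 2 and were dissected on Day 7. Litters of both these groups were set to 11 pups on the day of birth, by culling where needed. Virgin mice were age-matched, had never been mated and were kept with other females during the 2 weeks in which the others were housed with a male. All groups were of the same stock, with no genetic change named in the labels, and the comparisons ask which transcripts differ with motherhood and with the presence of pups. Virgin and pups removed mice were in diestrus. Values are log2 signals, and differences are given as maternal minus virgin, maternal minus pups removed, or pups removed minus virgin. In such tissue samples, fewer cells that express a gene and less RNA per cell cannot be told apart.

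Hormones from fat and gut reach neurons whose peptides raise or lower food intake. Leptin from fat acts on LEPR, and in the hypothalamus it restrains the neurons that release neuropeptide Y (NPY), which drives feeding, and stimulates those that release alpha-MSH and CART peptide, which curb it. Alpha-MSH acts on the melanocortin receptors MC3R and MC4R, NPY on the Y1, Y2 and Y5 receptors, and GLP-1, made in the gut and the hindbrain, on GLP1R, which is well expressed in neurons of the rodent LS. Lactation is a state of intense food intake, in which hypothalamic Npy is known to be raised in rats.

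The median correlation of an array with the others, across targets, was 0.9906 to 0.9938. All 6 LS neuron markers (Trpc4, Crhr2, Zic1, Zic2, Zic4 and Avpr1a) had a target, and their mean lay between 10.15 and 10.43 on every array. Markers of neighboring tissue varied more. The mean of 18 markers of striatal medium spiny neurons was 9.25 to 9.83 in maternal, 9.46 to 10.30 in pups removed and 9.94 to 10.17 in virgin mice. The mean of 13 choroid plexus markers was 7.48 to 8.79 in maternal, 7.37 to 9.23 in pups removed and 7.44 to 9.28 in virgin mice. Against virgin mice all 18 striatal markers were lower in maternal mice, and 6 of them fell by the test used here, while the 13 choroid plexus markers were all lower and 0 passed.

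None of the 9 feeding genes differed between groups at the false discovery rate (FDR) of 0.25 that the study used. In maternal against virgin mice 0 of 9 passed in limma, where 1.65% of all targets were called (0.832% higher and 0.813% lower), and 1 of 9 (Npy) had an unadjusted p under 0.05, where 10.4% of all targets had one. In maternal against pups removed mice 0 of 9 passed (0.0309% of all targets called, 0.0225% higher and 0.00844% lower), and 1 of 9 (Glp1r) had an unadjusted p under 0.05 (8.96% of all targets). In pups removed against virgin mice 0 of 9 passed (0.208% called, 0.188% higher and 0.0197% lower) and 0 of 9 had an unadjusted p under 0.05 (8.13% of all targets). The groups overlapped for every gene in each of the 27 pairs, and non-overlapping groups were also rare among all targets, at 0.835%, 0.529% and 0.38% in these comparisons. Differences pointed both ways. Of the 9, 4 were higher and 5 lower in maternal than in virgin mice (median difference -0.008), against a median of 0.012 over all targets. In maternal against pups removed mice 6 were higher and 3 lower (median 0.025, all targets -0.003), and in pups removed against virgin mice 4 were higher and 5 lower (median -0.027, all targets 0.012). The 3 comparisons share groups and are not independent of each other.

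**Figure D1:**
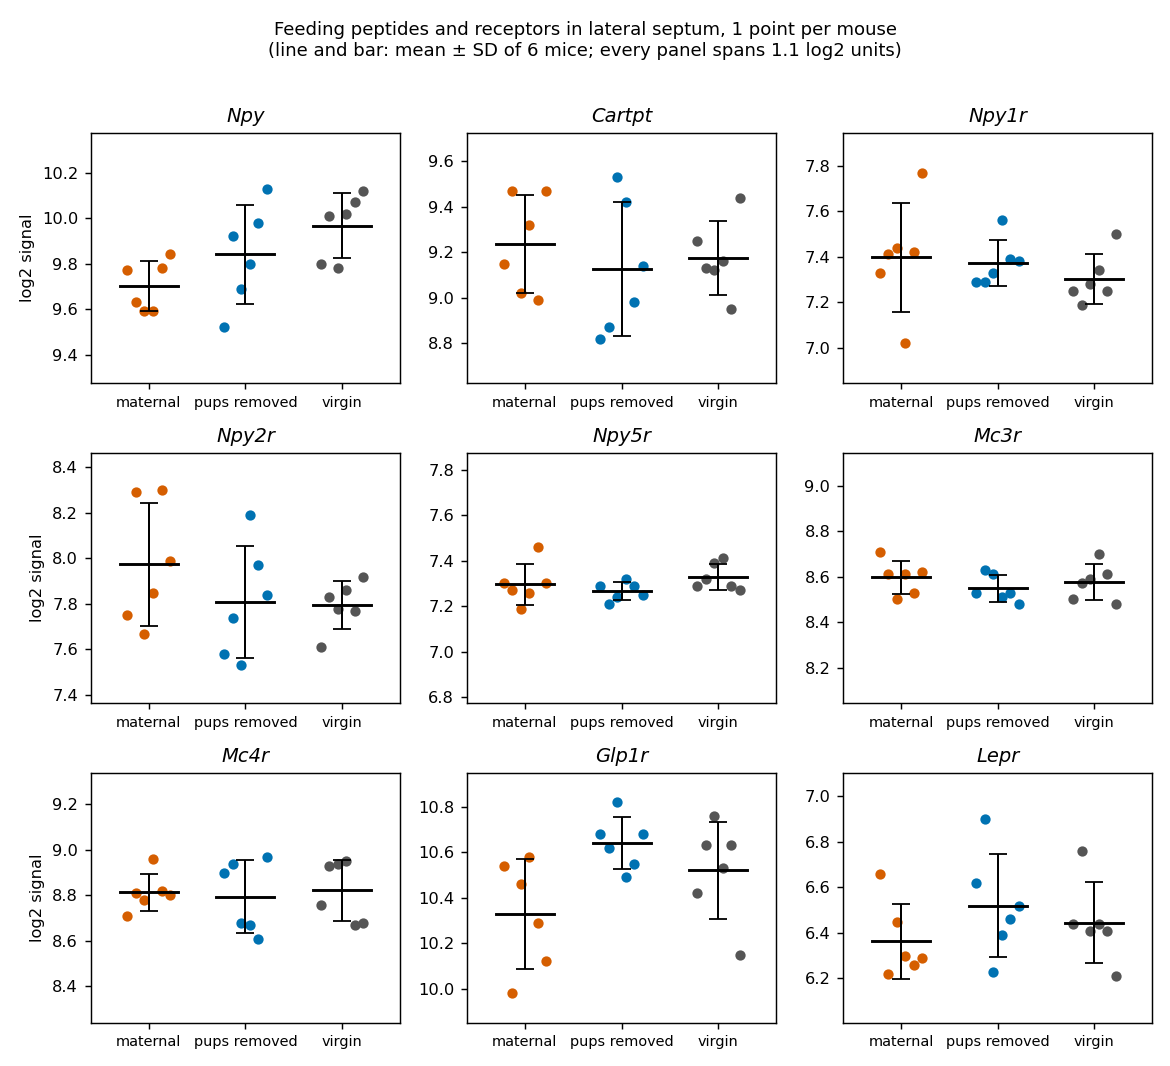
Log2 signal (vertical axis) of each of the 9 genes in each mouse, with maternal mice on the left, pups removed mice in the middle and virgin mice on the right of each panel. Points are mice, and the line and bar are the mean and SD of 6 mice. All panels span the same width of signal, so that the wide scatter of Glp1r, Cartpt and Npy2r and the narrow scatter of Mc3r and Npy5r can be seen, and groups overlap in every panel.

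Npy encodes the peptide that drives feeding in the hypothalamus and is made elsewhere in the forebrain by GABAergic interneurons, many of which also make somatostatin. Its signal ran from 9.59 to 9.84 in maternal mice (median 9.70), from 9.52 to 10.13 in pups removed mice (median 9.86) and from 9.78 to 10.12 in virgin mice (median 10.015). Maternal mice were the low group, and all 6 lay below the virgin mean, while 4 of them lay below every virgin mouse. The log2 difference was -0.27 (fold 0.831, standard error, SE, 0.09, 95% interval -0.45 to -0.08), with a limma adjusted p of 0.296, so that it did not pass. Pups removed mice spanned the range of both other groups. Their difference from virgin mice was -0.13 (95% interval -0.31 to 0.06, limma adjusted p = 0.765), and that of maternal from pups removed mice was -0.14 (95% interval -0.33 to 0.05, limma adjusted p = 0.678). Maternal mice thus had the lowest mean, pups removed mice the next and virgin mice the highest, with neither neighbor apart beyond its interval. The call was near the threshold. Npy passed when only the arrays of both groups were fitted (limma adjusted p = 0.234), when targets under the median signal were left out (0.173), and when virgin replicate 1 (difference -0.30, limma adjusted p = 0.24) or pups removed replicate 1 or 6 (0.238 and 0.247) was left out. It also passed with the replicate number as a block. Over the 18 arrays left out in turn its difference lay between -0.304 and -0.236 and its limma adjusted p between 0.238 and 0.491. Over the other settings the limma adjusted p lay between 0.173 and 0.318.

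Markers of other cells that moved beside Npy were measured too. The 5 markers of somatostatin and nitric oxide interneurons were all lower in maternal than in virgin mice (median difference -0.088, 0 of 5 called), among them Sst, the somatostatin gene, at -0.12 (95% interval -0.22 to -0.02). The striatal markers had a median difference of -0.417 in the same comparison. Relations among mice of 1 group were taken on deviations from the group mean, with p adjusted over 126 such relations. Npy had r = 0.54 with the mean of the striatal list (rho = 0.47, adjusted permutation p = 0.27 and 0.33), and r = 0.35 without the 2 farthest mice. Within groups this r was 0.32 in maternal, 0.75 in pups removed and -0.01 in virgin mice. All 18 striatal markers were positive, from r = 0.29 for Syndig1l to r = 0.69 for Bcl11b. With 3 markers of cortical glutamatergic neurons Npy had r = 0.54 and rho = 0.66 (adjusted permutation p = 0.12 and 0.053). That list differed by a median of -0.052 in maternal against virgin mice. With the mean of the interneuron list Npy had r = 0.33 and rho = 0.42 (adjusted permutation p = 0.54 and 0.36). Without the 2 farthest mice this r was 0.17. All 5 interneuron markers were positive, from r = 0.05 for Lhx6 to r = 0.57 for Sst. None of the relations of Npy with these lists passed. The part of these cells in the Npy values was not tested.

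Cartpt encodes CART peptide, which lowers food intake. Its signal was 8.99 to 9.47 in maternal mice (median 9.235), 8.82 to 9.53 in pups removed mice (median 9.06) and 8.95 to 9.44 in virgin mice (median 9.145). The groups covered nearly the same range, and pups removed mice held both the lowest and the highest value. The differences were 0.06 for maternal against virgin mice (95% interval -0.20 to 0.32), 0.11 for maternal against pups removed mice (-0.15 to 0.37) and -0.05 for pups removed against virgin mice (-0.31 to 0.21). These were the widest intervals of the 9 genes, and for maternal over virgin mice they reach from a fold of 0.871 to one of 1.251.

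Npy1r, Npy2r and Npy5r encode the Y1 and Y5 receptors, through which NPY promotes feeding, and the Y2 receptor, which often sits on the nerve endings that release NPY and dampens that release. Npy1r and Npy5r are neighbors in the mouse genome. In the comparisons of maternal mice, Npy2r had the largest differences of the 3. It ran from 7.67 to 8.30 in maternal mice (median 7.92), from 7.53 to 8.19 in pups removed mice (median 7.79) and from 7.61 to 7.92 in virgin mice (median 7.805). Maternal replicates 2 and 5, at 8.29 and 8.30, lay above all other mice, and the other 4 maternal mice lay within the range of pups removed mice. The difference was 0.18 for maternal against virgin mice (95% interval -0.07 to 0.43, limma adjusted p = 0.624), 0.17 for maternal against pups removed mice (-0.08 to 0.42, limma adjusted p = 0.711) and 0.01 for pups removed against virgin mice (-0.24 to 0.26).

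Npy1r ran from 7.02 to 7.77 in maternal mice (median 7.415), from 7.29 to 7.56 in pups removed mice (median 7.355) and from 7.19 to 7.50 in virgin mice (median 7.265). The maternal group held both extremes, replicate 4 at 7.02 and replicate 6 at 7.77, so that its SD was 0.24, against 0.10 in pups removed and 0.11 in virgin mice. The difference of maternal from virgin mice was 0.10 (95% interval -0.09 to 0.28), and the other differences were 0.03 (-0.16 to 0.21, maternal against pups removed) and 0.07 (-0.12 to 0.26, pups removed against virgin).

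Npy5r had the smallest within-group SD of the 9 genes, at 0.066 against 0.071 for Mc3r, the next, while over all 18 mice the range of Mc3r (0.23) was narrower than that of Npy5r (0.27). It was 7.19 to 7.46 in maternal mice (median 7.285), 7.21 to 7.32 in pups removed mice (median 7.27) and 7.27 to 7.41 in virgin mice (median 7.305). All 6 pups removed mice lay below the virgin mean, yet the groups overlapped between 7.27 and 7.32. The difference of pups removed from virgin mice was -0.06 (95% interval -0.15 to 0.02, limma adjusted p = 0.749). Maternal mice differed from virgin mice by -0.03 (-0.12 to 0.05) and from pups removed mice by 0.03 (-0.06 to 0.12).

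Mc3r and Mc4r encode the receptors at which alpha-MSH lowers, and its antagonist agouti-related protein raises, food intake. Mc3r lay between 8.50 and 8.71 in maternal mice (median 8.61), 8.48 and 8.63 in pups removed mice (median 8.53) and 8.48 and 8.70 in virgin mice (median 8.58). The ranges of the groups nearly coincided. The maternal minus virgin difference was 0.02, with a 95% interval of -0.07 to 0.11, or folds of 0.953 to 1.082. The other differences were 0.05 (-0.04 to 0.14, maternal against pups removed) and -0.03 (-0.12 to 0.07, pups removed against virgin).

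Mc4r lay between 8.71 and 8.96 in maternal mice (median 8.805), 8.61 and 8.97 in pups removed mice (median 8.79) and 8.67 and 8.95 in virgin mice (median 8.845). Maternal mice stood inside the range of the other groups. Pups removed mice split into 3 at 8.90 to 8.97 and 3 at 8.61 to 8.68. Group means of Mc4r differed by at most 0.03 on the log2 scale, with a 95% interval of -0.16 to 0.14 for maternal against virgin mice, and -0.18 to 0.12 for pups removed against virgin mice.

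Glp1r encodes the receptor of the satiety hormone GLP-1. Its signal was 9.98 to 10.58 in maternal mice (median 10.375), 10.49 to 10.82 in pups removed mice (median 10.65) and 10.15 to 10.76 in virgin mice (median 10.58). All 6 maternal mice lay below the mean of pups removed mice and 4 of them below every pups removed mouse, while maternal replicates 1 and 4 (10.54 and 10.58) lay within that group's range. The difference of maternal from pups removed mice was -0.31 (fold 0.806, SE 0.11, 95% interval -0.54 to -0.09), with a limma adjusted p of 0.426, so that it did not pass. Maternal mice differed from virgin mice by -0.19 (95% interval -0.42 to 0.03, limma adjusted p = 0.559), and pups removed from virgin mice by 0.12 (-0.11 to 0.35, limma adjusted p = 0.83). Pups removed mice thus had the highest mean and maternal mice the lowest, and virgin mice did not differ from either beyond the interval. With arrays weighted by their quality in limma, Glp1r passed (-0.32, limma adjusted p = 0.249), and the count over all targets in that comparison was then 783 in place of 11. Markers of ependymal cells, which line the ventricle, were lower in maternal mice beside it. Their mean was 7.72 to 8.32 in maternal, 7.86 to 8.54 in pups removed and 7.95 to 8.46 in virgin mice, and against pups removed mice all 6 were lower (median -0.378, 0 of 6 called, 5 of 6 with an unadjusted p under 0.05). Among mice of 1 group Glp1r had r = 0.56 with this list (rho = 0.51, adjusted permutation p = 0.12 and 0.22), with r = 0.73 in maternal, 0.01 in pups removed and 0.94 in virgin mice. Other lists moved too. Against pups removed mice all 18 striatal (median -0.313) and all 13 choroid plexus markers (median -0.477) were lower, while 5 of 6 LS markers were higher (median 0.055). Among mice of 1 group Glp1r had r = 0.66 with LS, 0.62 with astrocyte, 0.47 with choroid plexus and 0.12 with striatal markers (adjusted permutation p = 0.06, 0.17, 0.19 and 0.81). The part of any of these cells in the Glp1r values was not tested. Over all 8 other settings the limma adjusted p of Glp1r lay between 0.249 and 0.493, and with 1 array left out between 0.286 and 0.646, with a difference of -0.362 to -0.242.

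Lepr encodes the leptin receptor. It was 6.22 to 6.66 in maternal mice (median 6.295), 6.23 to 6.90 in pups removed mice (median 6.49) and 6.21 to 6.76 in virgin mice (median 6.425). The lowest mice of the 3 groups were almost equal, and the highest mouse of each group stood above the rest, which were maternal replicate 1 (6.66), pups removed replicate 2 (6.90) and virgin replicate 2 (6.76). Maternal mice differed from pups removed mice by -0.16 (95% interval -0.38 to 0.06, limma adjusted p = 0.687) and from virgin mice by -0.08 (-0.30 to 0.14, limma adjusted p = 0.834). The 13 choroid plexus markers were all lower in maternal mice in these same comparisons, with median differences of -0.477 and -0.507.

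**Figure D2:**
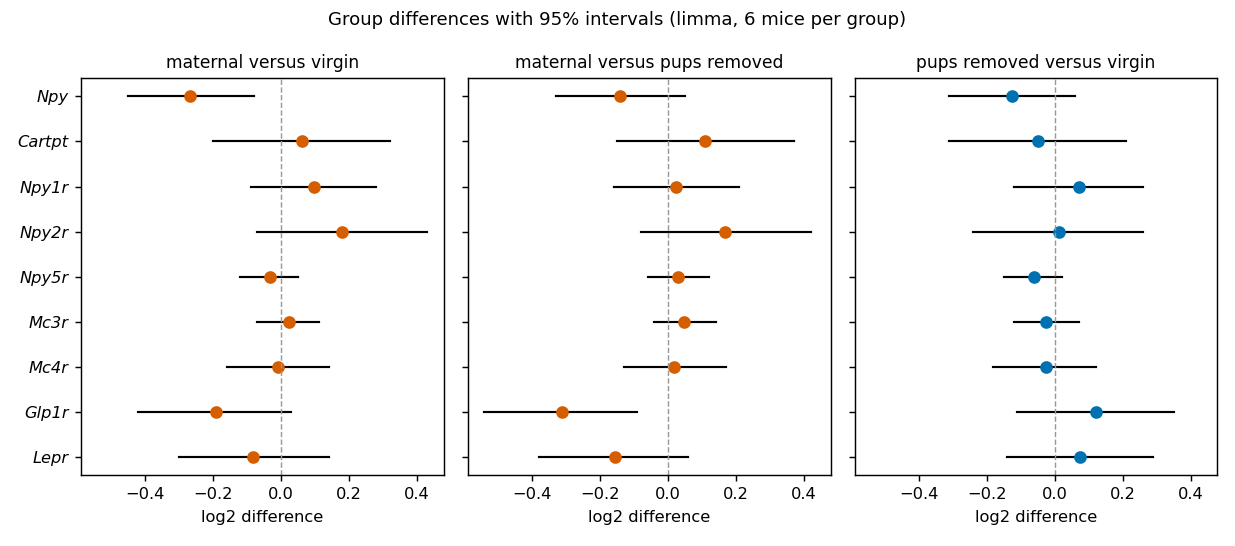
Log2 difference (horizontal axis) of each gene in the 3 comparisons, with the 95% interval from limma as a line, and 0 as a dashed line. Of 27 intervals, those of Npy in maternal against virgin mice (-0.45 to -0.08) and Glp1r in maternal against pups removed mice (-0.54 to -0.09) do not reach 0, before adjustment over all targets.

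The spread between mice of 1 group was large for 6 of the 9 genes. Set against all genes within 0.5 log2 units of the same mean signal, the within-group SD of Cartpt (0.23) stood at percentile 98.2, that of Glp1r (0.20) at 98.1, that of Npy2r (0.22) at 97.3, that of Npy (0.16) at 96.2, that of Lepr (0.19) at 96.1 and that of Npy1r (0.16) at 93.8. Mc4r (0.13) was at percentile 87.1. Mc3r (0.07) was at percentile 33.1, and Npy5r (0.07) was at percentile 5.9, among the steadier genes of its signal. Group membership held 34.9% of the variance of Npy and 33.6% of that of Glp1r, and between 0.9% and 14.9% of the variance of the other 7.

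The deviations of each mouse from its group mean were then compared between genes, so that differences between groups played no part. Over the 36 pairs of the 9 genes, 20 correlations were positive and 16 negative, and after Benjamini-Hochberg adjustment 0 passed 0.05 (lowest adjusted permutation p = 0.14), while 4 had an unadjusted p under 0.05. Glp1r ran against Npy1r (r = -0.65, rho = -0.60, adjusted permutation p = 0.14) and Npy2r (r = -0.62, rho = -0.63, adjusted permutation p = 0.14). Cartpt ran against Lepr (r = -0.63, rho = -0.67, adjusted permutation p = 0.14), and Npy2r and Npy5r ran together (r = 0.53, rho = 0.45, adjusted permutation p = 0.30), a relation that had r = 0.27 without the 2 mice farthest from the median.

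Each gene was also set against the mean of 14 lists of cell markers, which made 126 relations. Of these 27 had an unadjusted permutation p under 0.05, and 5 had an adjusted p under 0.05 by Pearson r, while by Spearman rho these 5 and a further 1 did. The firmest was that of Lepr with choroid plexus, the tissue that secretes cerebrospinal fluid in the ventricle beside the LS and a known site of leptin receptors. Lepr varied together with the list over the 18 mice (r = 0.85, rho = 0.90, adjusted permutation p = 0.0038 for both). Within groups r was 0.96 in maternal, 0.81 in pups removed and 0.85 in virgin mice, and it was 0.86 without the 2 mice farthest from the median of Lepr. All 13 markers went the same way, from r = 0.71 for Steap1 to r = 0.92 for Aqp1, the water channel of the choroid plexus. The mice with the highest Lepr in each group, maternal replicate 1, pups removed replicate 2 and virgin replicate 2, had choroid plexus means of 8.792, 9.23 and 9.276, the highest of their groups. Maternal replicate 2, pups removed replicate 3 and virgin replicate 6, with the lowest Lepr of their groups, had means of 7.477, 7.393 and 7.438, all under the mean of the list in their group. Lepr also ran against the 5 markers of cholinergic neurons of the medial septum (r = -0.73, rho = -0.79, adjusted permutation p = 0.047 and 0.042), most against Slc5a7, the choline transporter (r = -0.72). By rho alone it passed against the markers of somatostatin and nitric oxide interneurons (rho = -0.76, adjusted permutation p = 0.042; r = -0.64, adjusted permutation p = 0.12). The marker lists are not independent of each other. The mouse highest in choroid plexus markers against its group, maternal replicate 1 (0.807), was low in cholinergic markers (-0.14). The lowest, virgin replicate 6 (-1.118), was high in them (0.117), and most but not all other mice also deviated in opposite ways. The relations of Lepr with these lists are thus not separate findings. With ependymal markers Lepr had r = 0.68 and rho = 0.70 (adjusted permutation p = 0.072 and 0.053), and all 6 were positive. Within groups that r was 0.86 in maternal, 0.73 in pups removed and 0.39 in virgin mice. With meningeal fibroblast markers Lepr had r = 0.60 and rho = 0.52 (adjusted permutation p = 0.079 and 0.23), and 5 of 8 were positive. Neither of these relations passed. How much of the Lepr signal came from choroid plexus or these other cells was not tested.

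Npy and Npy1r both ran against the markers of LS neurons. Of these 6 markers 4 were higher and 2 lower in maternal than in virgin mice (median difference 0.055). None was called, and 2 had an unadjusted p under 0.05. For Npy r was -0.73 (rho = -0.76, adjusted permutation p = 0.047 and 0.042), with -0.61 in maternal, -0.85 in pups removed and -0.65 in virgin mice and -0.62 without the 2 farthest mice. For Npy1r r was -0.72 (rho = -0.71, adjusted permutation p = 0.047 and 0.046), with -0.87 in maternal, -0.58 in pups removed and -0.91 in virgin mice and -0.69 without the 2 farthest mice. All 6 markers were negative for both genes, and the strongest were Zic1, a transcription factor of the developing septum, for Npy (r = -0.81), and Crhr2, a receptor of the corticotropin-releasing factor family, for Npy1r (r = -0.81). Glp1r ran the other way, with r = 0.66 against the same list and 6 of 6 markers positive, but its adjusted permutation p was 0.06 (rho = 0.57, adjusted p = 0.18). Npy2r ran with the markers of somatostatin and nitric oxide interneurons (r = 0.75, rho = 0.75, adjusted permutation p = 0.047 and 0.042), positive for 4 of 5 genes with Lhx6 at 0.74 and Sst at -0.18. The mean of the LS list spanned 0.28 log2 units over all mice and that of the interneuron list 0.29, so these are relations with small shifts. Apart from that of Lepr with choroid plexus, which passed with any 1 mouse left out (r between 0.82 and 0.89), these relations lay at the threshold. With each of the 18 mice left out in turn, the relation of Npy1r with LS markers passed 13 times, those of Npy with LS markers and Npy2r with interneuron markers 7 times each, and that of Lepr with cholinergic markers 6 times, with r never nearer to 0 than -0.65, -0.66, 0.65 and -0.65 for these 4. With each array centered on its median, Npy with LS markers (r = -0.57, adjusted permutation p = 0.15) and Lepr with cholinergic markers (r = -0.69, adjusted permutation p = 0.054) did not pass, and Glp1r with LS markers did (r = 0.74, adjusted permutation p = 0.039). With quantile normalization Npy with LS markers did not pass (r = -0.68, adjusted permutation p = 0.051).

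**Figure D3:**
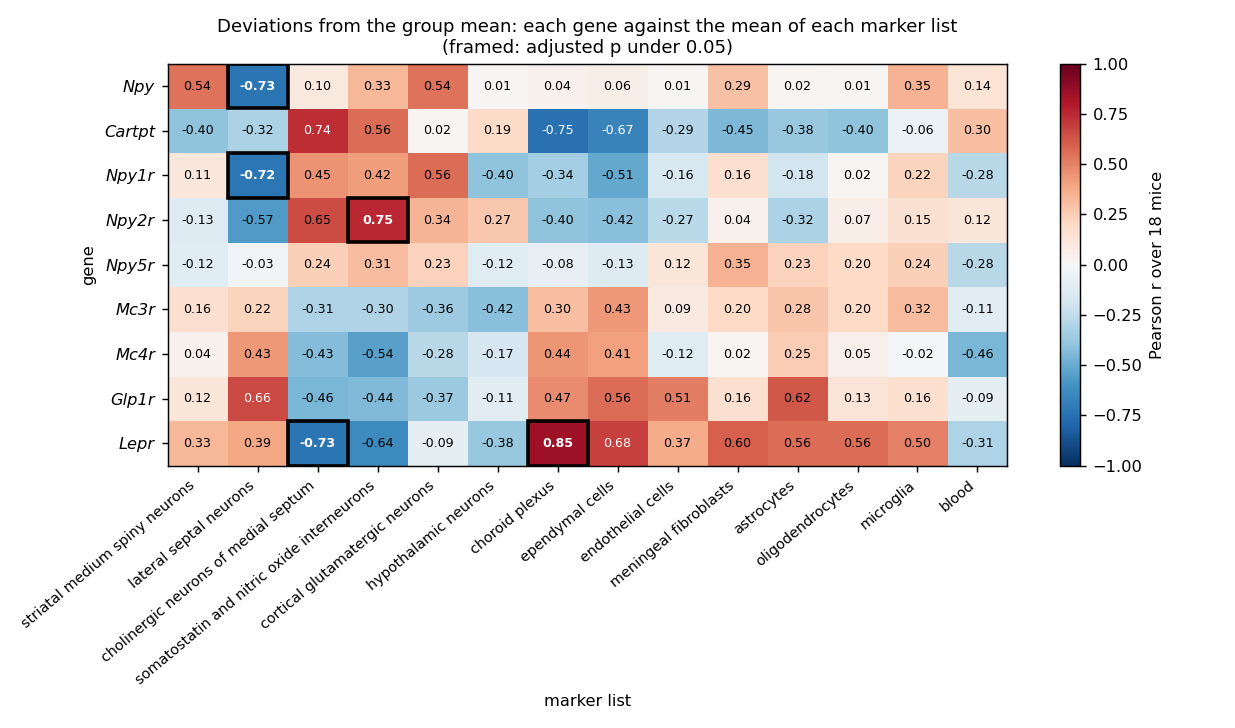
Pearson r over 18 mice between each of the 9 genes (rows) and the mean of each of 14 marker lists (columns), computed on deviations from the group mean. Red is positive, blue negative, and the 5 framed cells have an adjusted permutation p under 0.05, led by Lepr with choroid plexus (0.85).

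**Figure D4:**
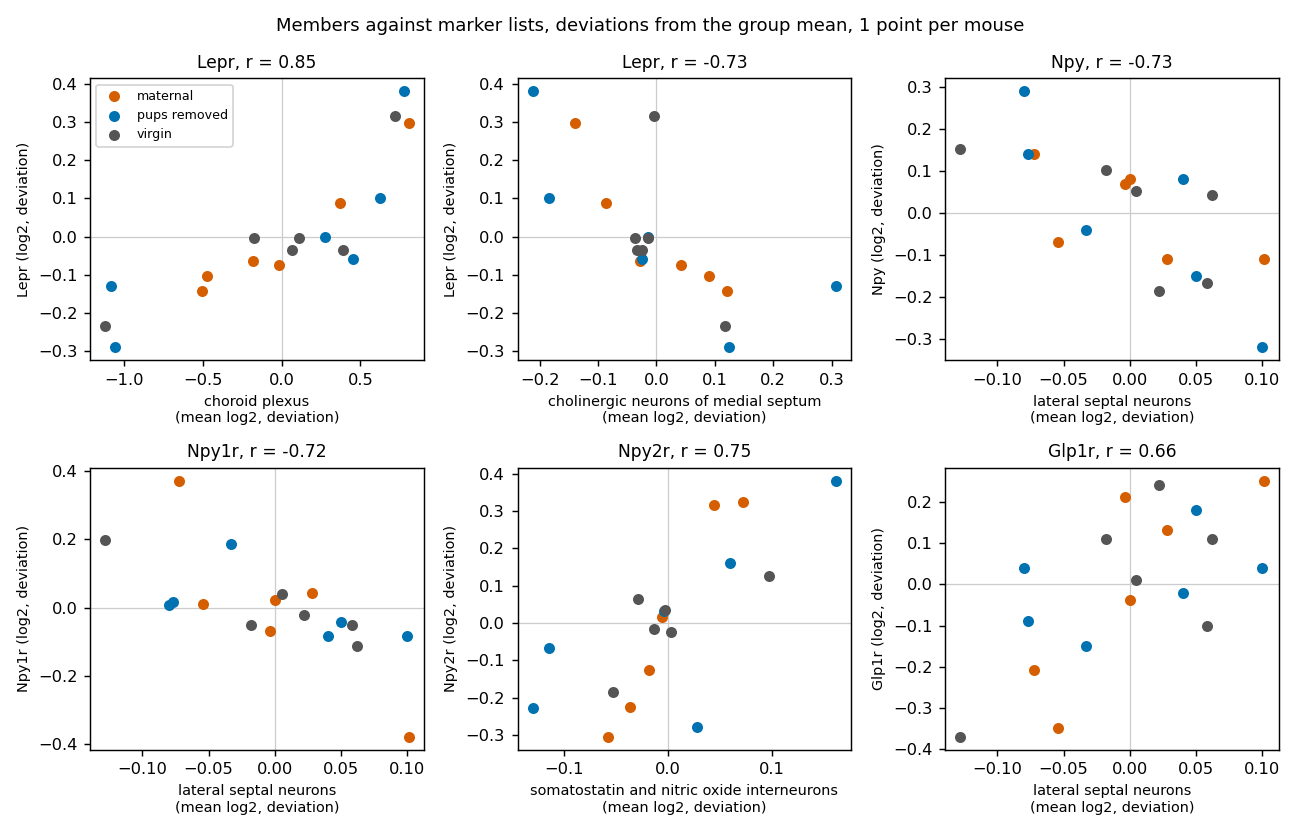
Deviation of 6 gene and list pairs from the group mean, in log2 units, with the marker list on the horizontal and the gene on the vertical axis. Each point is 1 mouse, orange for maternal, blue for pups removed and gray for virgin mice. In the first panel (r = 0.85) the 3 mice lowest in choroid plexus markers lie under their group means of Lepr.

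Cartpt fell just outside the threshold with 2 lists. It ran against choroid plexus markers (r = -0.75, rho = -0.71, adjusted permutation p = 0.055 and 0.053), and with cholinergic neurons of the medial septum (r = 0.74, rho = 0.74, adjusted permutation p = 0.06 and 0.053), the mirror image of Lepr. As these 2 lists tended to deviate in opposite ways, they do not make separate findings here either. Within groups the relation with choroid plexus was -0.97 in pups removed and -0.75 in virgin mice, and -0.31 in maternal mice.

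The genes most like each member were sought among 19929 genes, by Pearson r of the same deviations over 18 mice. With so many genes compared, values of this size are a description and carry no test. Lepr had the closest, Slc24a5 and Abca4 (both r = 0.94). Mc4r was nearest to Gtpbp4 (0.89) and Kcnmb1 (0.87), Npy2r to 4933402E13Rik (0.89) and Mmp16 (0.88), and Npy1r to Ip6k1 (0.87) and Doc2a (0.85), which encodes a calcium sensor of transmitter release. Glp1r was nearest to Cat, the gene of catalase, and to Hey1, a target of Notch signaling (both 0.85). Cartpt was nearest to Cbln4, a secreted organizer of synapses, and Slc17a9, the vesicular transporter of ATP (both 0.85), Mc3r to Zfp719 and Arhgap11a (both 0.85), and Npy to Kcnv1, a potassium channel subunit (0.85), and Ramp1, a partner of the CGRP receptor (0.83). Npy5r had the least close, Dennd5b (0.82) and Stradb (0.79).

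The wider pathways around the 9 genes were followed with 5 lists of 92 genes, which include the 9, and 88 of the 92 had a target of their own. Agrp, Asip, Pcsk2 and Calca had none and were not analysed here. In maternal against virgin mice 2 of 88 rose (background 0.832% of all targets called higher) and 0 fell (0.813%). They were Nmu, the gene of the appetite-lowering peptide neuromedin U (0.40, SE 0.08, limma adjusted p = 0.111), and Hcrtr1, a receptor for orexins (0.25, SE 0.06, limma adjusted p = 0.147). Nmu lost its call without maternal replicate 5 (0.38), and Hcrtr1 without maternal replicates 4 (0.23), 5 (0.27) or 6 (0.24). Neither the 9 genes of the NPY family (6 higher, 3 lower, median 0.07), the 13 of the melanocortin system (7 and 6, median 0.01), the 12 of leptin signaling (8 and 4, median 0.02) nor the 12 of the GLP-1 and glucagon family (6 and 6, median 0.01) held a called gene, and both that passed belong to the 42 other feeding peptides and receptors. The paper, from the same arrays, also reports Nmu and Hcrtr1 as higher in maternal than in virgin mice. Adcyap1, of the GLP-1 and glucagon family, is among the genes it lists as most significant in this comparison. Here it was higher by a fold of 1.058 and did not pass (limma adjusted p = 0.765). Why the calls differ was not tested.

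In maternal against pups removed mice 0 of 88 passed in limma. The smallest p-values were those of Nmu (0.35, limma adjusted p = 0.278), Glp2r, the receptor of glucagon-like peptide 2 (0.17, limma adjusted p = 0.412), and Ppy, the gene of pancreatic polypeptide (0.14, limma adjusted p = 0.421). The paper lists Nmu as significant in this comparison as well, where it was not called here. In the GLP-1 and glucagon family 11 of 12 genes were higher in maternal mice and Glp1r alone was lower, with 3 at an unadjusted p under 0.05, while of all 35557 targets 16953 were higher and 8.96% had such a p. In pups removed against virgin mice 0 of 88 passed, and the smallest p-values were those of Vipr2, a receptor of vasoactive intestinal peptide (-0.15, limma adjusted p = 0.412), Sctr, the secretin receptor (-0.14, limma adjusted p = 0.573), and Gip, an incretin (-0.13, limma adjusted p = 0.645). The same family had 9 of 12 genes lower in pups removed mice, whose arrays also entered the comparison with maternal mice, and of all targets 15131 were lower.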

How the data were processed

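LS RNA of 18 mice was hybridized to 1 array each. The authors summarized and normalized the scans with PLIER and a background correction by GC bin in Affymetrix Power Tools 1.12.0, and the values they deposited are log2 signals of 35557 targets with 2 decimals, used unchanged. Which method of normalization between arrays this included, and a genome build, are not given in the sources used here, and no detection call was used, so how far a dim gene lies above background was not tested. The platform annotation names 1 gene for 21789 targets, several for 1621 and none for 12147.

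Groups follow the labels. All targets were fitted with 1 model of 3 group means in limma 3.58.1 (R 4.3.3) with Benjamini-Hochberg adjustment over all of them, and called means an adjusted p under 0.25. At this threshold the paper reports more targets for maternal against virgin mice than the 585 called here. An SD is that between 6 mice. Deviations from group means were correlated in Python 3.11.15 (numpy 2.4.6, scipy 1.17.1), with 100000 two-sided permutations within groups and adjustment over the 36 pairs or 126 relations. Named are all 9 genes, pathway genes called in a comparison or, where none was, the 3 with the smallest p, and the 2 genes most like each of the 9. The genes and lists were chosen with earlier results of these data known. On data simulated from these arrays, with 100 targets each raised by 0.3 and 1 on the log2 scale between maternal and virgin mice, 76% and 97% of these differences were recovered in a fit of 35557 targets, and of 235 calls 62 were false. The raised targets were drawn at random and given independent noise. These rates need not hold for the 9 genes, most of which vary more between mice than other genes of like signal. The number of arrays limits the precision. The alternatives were a replicate block, quantile normalization, median centering, another variance prior, array weights, fits of 2 groups, filters on signal and annotation, and leaving out single arrays. Scalings and left-out arrays for the marker relations were added after seeing the data.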

Additional observations from a re-analysis of the deposited data

Results flagged for a closer look

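In 1 of 27 sets of 6 mice, a single mouse stood apart from the rest by Dixon's test. Npy1r in pups removed mice was 7.56 in replicate 4, and the other 5 lay between 7.29 and 7.39, so that the gap was 0.63 of the whole range, just past the 95% critical value. Chance gives such a result in about 1 of 20 sets.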

How the results depend on the processing

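The number of the 9 genes called in maternal against virgin mice was 0, and it was 1, always Npy, with the replicate number as a block (-0.267, limma adjusted p = 0.212), with 2 groups fitted only (0.234) and with targets above the median signal only (0.173), a filter that removed Npy1r, Npy5r and Lepr. RNA was prepared in triplets of 1 mouse per group, but no label ties a replicate number to a triplet. Same-numbered mice correlated between -0.25 and 0.1, and 0 of 6 correlated best with their own number in each comparison. Whether equal numbers mark triplets cannot be told from this, as other differences between mice enter the same correlations. Leaving out 1 array gave 0 to 1 called genes in maternal against virgin mice and 0 in the other comparisons. In maternal against pups removed mice array weights called 1 gene, Glp1r. Each gene has 1 target, so averaging targets changed nothing and was not run. Pairs of genes that passed were 0, also without the 2 farthest mice, and marker relations that passed were 5, with 1 to 11 when 1 mouse was left out. Of 207 differences under other settings 197 kept their direction and side of the threshold. Those that turned direction were small. Npy2r in pups removed against virgin mice was -0.009 with quantile normalization, -0.017 with median centering and -0.008 with array weights, and Mc4r with array weights was 0.003 in maternal minus virgin, -0.012 in maternal minus pups removed and 0.014 in pups removed minus virgin mice. With 1 array left out, differences that turned ranged from -0.001 to 0.047 (Mc3r) and -0.039 to 0.017 (Mc4r) in maternal against virgin mice. In maternal against pups removed mice they ranged from -0.019 to 0.053 (Mc4r), -0.003 to 0.051 (Npy5r) and -0.049 to 0.101 (Npy1r). In pups removed against virgin mice they ranged from -0.062 to 0.01 (Mc4r), -0.063 to 0.069 (Npy2r), -0.129 to 0.013 (Cartpt) and -0.001 to 0.138 (Lepr). The cause was not tested. Counts over all targets moved more. In maternal against virgin mice 585 targets were called, 356 with the block, 1309 above the median signal and 10 to 1639 with 1 array left out. In maternal against pups removed mice 11 were called, 42 with quantile normalization, 7 with median centering, 30 with another variance prior, 783 with array weights, 225 above the median signal, 309 among targets of 1 gene and 5 to 719 with 1 array left out. In pups removed against virgin mice 74 were called, 42 with array weights, 33 with 2 groups only, 24 above the median signal, 7 among targets of 1 gene and 18 to 266 with 1 array left out.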
